A study of Mus musculus with 4 samples.

Results

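The 32 genes described here encode the machinery that charges, processes and uses transfer RNAs inside mitochondria. They were taken by gene symbol from a fixed list, out of 32285 genes in the deposited tables, and all 32 were found. They fall into 15 aminoacyl-tRNA synthetases, 3 initiation factors, 3 elongation factors, 4 termination and recycling factors, 4 enzymes that trim or finish tRNA ends and 3 that modify tRNA bases. The study sequenced single kidney cells of mice that carried a point mutation in the mitochondrial gene TrnE, which encodes the tRNA for glutamate, and of wild-type C57BL/6J mice. Live kidney cells had been sorted and run on a droplet 3′ kit, with 1 library per sample. The 2 mutant libraries (mutant 1 and mutant 2) carried mutation loads of 79% and 76% per the labels, so that mutant and normal mitochondrial DNA coexisted in those mice. The 2 wild-type libraries (wild type 1 and wild type 2) came from C57BL/6J mice. Ages, sexes, litters and days of preparation were not given in the sources used here, and neither was the load of single cells. For these genes the comparison asked whether the cells with the defective tRNA carried more or less mRNA for the rest of the mitochondrial translation machinery.

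Mammalian mitochondrial DNA encodes a small set of respiratory chain proteins together with the ribosomal and transfer RNAs that read their messages. The proteins of the translation machinery itself are encoded in the nucleus, made in the cytosol and imported. Each synthetase joins 1 amino acid to its tRNA, initiation factors set the first tRNA on the ribosome, elongation factors carry the following ones in and move the ribosome along, and release and recycling factors free the product and part the subunits. Mitochondrial tRNAs are cut out of long transcripts, so the end-processing enzymes also shape the other mitochondrial RNAs. Tubule cells of the kidney, above all the proximal tubule, are rich in mitochondria because reabsorption uses much ATP.

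Promoter windows are printed here for 3 members on which the results turn: Tufm, which had the smallest adjusted p of any member in any cell class, Hsd17b10, which had the smallest unadjusted p in T cells, and Lars2, whose level in the proximal tubule differed most between the wild-type libraries. RefSeq windows on GRCm38.p6, of 250 bases before and 50 after the gene start, were matched for 28 of the 32 members. They were searched on both strands for core motifs of 3 factors known to act on nuclear genes of mitochondrial function: NRF1 (GCGC and TGCGC with any 1 base between them), GABPA (CCGGAAGT) and YY1 (ATGGCGGC). Matches of different motifs did not overlap in any member. Capitals mark a motif. The Tufm window (chr7:126487105-126487404, plus strand) held a GABPA motif that began 2 bases before the start. The Lars2 window (chr9:123366677-123366976, plus strand) held a YY1 motif 23 bases into the transcript, and the Hsd17b10 window (chrX:152001646-152001945, plus strand) held none of the 3.
Tufm: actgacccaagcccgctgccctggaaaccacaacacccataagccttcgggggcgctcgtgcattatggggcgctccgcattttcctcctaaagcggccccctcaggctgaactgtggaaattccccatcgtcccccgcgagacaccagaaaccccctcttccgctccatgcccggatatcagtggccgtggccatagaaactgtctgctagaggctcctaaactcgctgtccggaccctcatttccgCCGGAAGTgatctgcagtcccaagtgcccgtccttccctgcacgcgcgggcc
Lars2: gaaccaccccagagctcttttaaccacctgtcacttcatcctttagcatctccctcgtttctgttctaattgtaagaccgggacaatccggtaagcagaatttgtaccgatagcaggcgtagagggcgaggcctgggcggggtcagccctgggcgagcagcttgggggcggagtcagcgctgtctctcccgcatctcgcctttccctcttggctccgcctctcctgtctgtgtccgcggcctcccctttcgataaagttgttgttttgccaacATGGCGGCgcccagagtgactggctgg
Hsd17b10: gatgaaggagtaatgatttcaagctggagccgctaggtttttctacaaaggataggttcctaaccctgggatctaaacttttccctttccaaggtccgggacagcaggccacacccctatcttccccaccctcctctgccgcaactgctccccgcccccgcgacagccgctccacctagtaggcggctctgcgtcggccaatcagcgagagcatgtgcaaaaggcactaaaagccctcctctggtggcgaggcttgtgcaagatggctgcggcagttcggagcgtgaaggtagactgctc

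At least 1 of the 3 motifs stood in 11 of the 28 member windows (39.3%), against 10.3% of all 27025 promoter windows and 22.0% of the 10314 windows of genes tested in the proximal tubule. The GABPA motif stood in the windows of Gfm1, Rars2, Trmt10c and Tufm (14.3% of members, 4.0% of all windows and 8.52% of those of genes tested in the proximal tubule). The YY1 motif stood in those of Lars2, Tars2, Trit1 and Yars2 (14.3%, against 2.38% and 5.10%), and the NRF1 motif in those of Gfm2, Iars2 and Mars2 (10.7%, against 4.78% and 10.5%). These are matches of letters and not measured binding.

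The mutant libraries held 65565948 and 70013861 UMIs, and the wild-type libraries 42121175 and 59946996, a UMI being a tag for 1 captured mRNA molecule. After filtering, 30411 of 37041 cell barcodes remained (9549 and 8889 of mutants, 5655 and 6318 of wild types), and pairs of libraries shared 14 to 26 barcodes. The cells formed 35 clusters, of which 33 were named by markers into 14 classes, and the members took no part in the clustering. Every listed marker of each class tested had UMIs in that class. Wild type 2 stood apart: 59.7% of its cells were proximal tubule and 14.3% B cells, and its Malat1 level was the highest of the 4 libraries in all 6 classes tested (43323 CPM in the proximal tubule, against 17565 and 6704 CPM in the mutants and 15106 CPM in wild type 1). Values of Malat1 and of marker lists are in plain CPM, UMIs relative to the sum of the class in that library with no further scaling. The deposited name of wild type 1 has the same form as that of mutant 2, and the genotypes could not be checked from these counts, so values without each wild-type library are given where they matter. Cell Ranger 7.0.0 had been used on both mutants, and 7.1.0 on both wild types, so that software version and genotype cannot be told apart.

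Of 8 classes with at least 50 cells in every library, the members were tested between genotypes in the 6 whose smallest library held the most cells. Macrophages and dendritic cells, with 59 cells each in wild type 2, were not tested. UMIs were summed per library and class, and each sum was treated as 1 sample, so n = 2 against 2. A sum averages over the cells of a class, so fewer expressing cells and less RNA per cell cannot be told apart. Levels within a class are in CPM, UMIs relative to the library's own sum for that class after TMM scaling. Fold changes divide mutant by wild type and are on the log2 scale. Each p comes from the quasi-likelihood F test in edgeR, adjusted by Benjamini and Hochberg's method over all genes of a class, and these p-values measure only the spread between these libraries.

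None of the members passed the threshold of 0.05 in any class. In the proximal tubule 0 of 32 members were called by edgeR, where 1.03% of all 13334 genes tested were called. The count was also 0 of 32 in T cells (0% of 11857 genes) and 0 of 30 in B cells (0% of 9770). It was 0 of 28 in the distal convoluted and connecting tubule (0.427% of 9834 genes), 0 of 23 in the thick ascending limb (0.144% of 8328) and 0 of 24 in monocytes (0% of 9324). DESeq2 called 0 members in each class as well. At an unadjusted p under 0.05, edgeR gave 0 members in the proximal tubule (10.1% of all genes), 1 in T cells (Hsd17b10; 3.35%), 0 in B cells (3.8%), 2 in the distal convoluted and connecting tubule (Tars2 and Cars2; 14.6%), 2 in the thick ascending limb (Tufm and Nars2; 18.3%) and 0 in monocytes (2.7%). Members left untested for low counts were 2 in B cells, 4 in the distal convoluted and connecting tubule, 9 in the thick ascending limb and 8 in monocytes, with 8 to 43 UMIs each over the 4 libraries, and Aars2, the alanine synthetase, and Pars2, the proline synthetase, were among them in each of these classes.

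The precision was low for single genes. The median width of a member's 95% interval was 1.52 log2 units in the proximal tubule, 1.47 in T cells, 1.80 in B cells, 1.41 in the distal convoluted and connecting tubule, 1.75 in the thick ascending limb and 1.81 in monocytes. A 2-fold rise or a 2-fold fall thus often lay inside it, though less often both. By estimate, 19 of 32 members were higher in mutant proximal tubule (51% of all genes), 19 of 32 in T cells (50.3%), 19 of 30 in B cells (48.8%), 16 of 28 in the distal convoluted and connecting tubule (48.9%), 12 of 23 in the thick ascending limb (49.4%) and 14 of 24 in monocytes (51.2%). The median log2 fold change of the members tested was 0.13 in the proximal tubule, against 0.01 over all genes. It was 0.08 in T cells (all genes 0.00), 0.12 in B cells (-0.02), 0.06 in the distal convoluted and connecting tubule (-0.01), 0.01 in the thick ascending limb (-0.01) and 0.09 in monocytes (0.02). Scaling by library totals in place of TMM moved the median of all genes to between -0.25 and -0.17 and turned the members' median to -0.03 in the proximal tubule, -0.10 in T cells, -0.11 in B cells, -0.09 in the distal convoluted and connecting tubule, -0.16 in the thick ascending limb and -0.08 in monocytes, which was still above the median of all genes in each class. Under that scaling 16, 11, 11, 11, 7 and 11 members were higher in these classes.

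**Figure D1:**
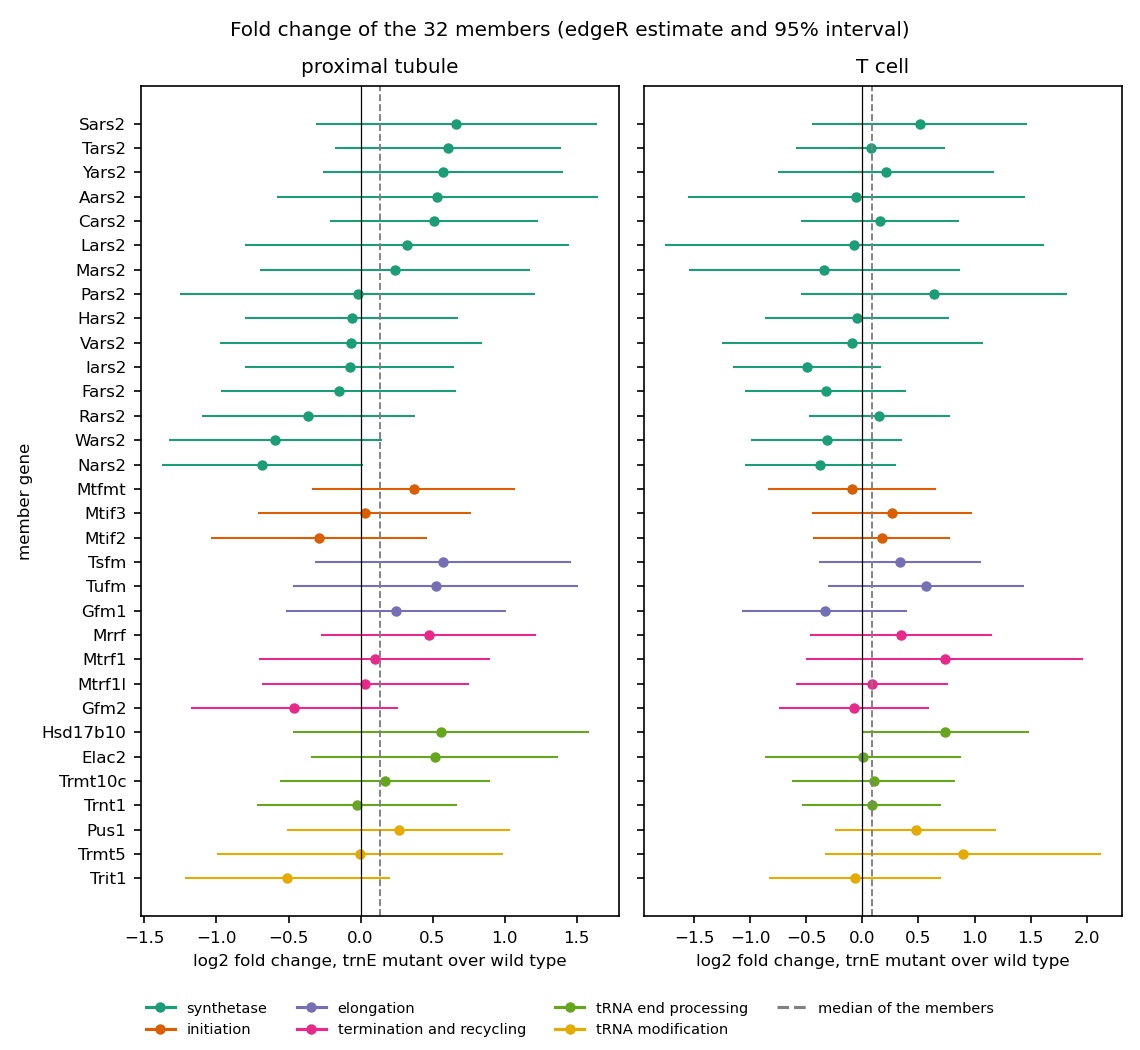
Log2 fold change of each of the 32 members, trnE mutant over wild type, in the proximal tubule (left) and T cells (right). Points are edgeR estimates, lines are 95% intervals, colours are roles and the dashed line is the members' median (0.13 and 0.08); the intervals of all 32 members reach across 0 in the proximal tubule, and Hsd17b10 in T cells is the 1 whose interval lies above 0, from 0.00.

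In the proximal tubule both mutants lay above both wild types for 7 of the 32 members, where 22.1% of all genes did so, and below both for 6, where 21.6% did so. In T cells the counts were 8 above and 4 below (19.4% and 18.6% of all genes), and in B cells 10 of 30 above and 4 below (19.9% and 20.2%). In the distal convoluted and connecting tubule 3 of 28 were above and 7 below (23.7% and 25%), in the thick ascending limb 3 of 23 above and 5 below (24.6% and 26%), and in monocytes 5 of 24 above and 2 below (19.5% and 19.3%).

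The synthetases of the proximal tubule were split, with 7 of 15 higher in the mutants and a median log2 fold change of -0.02. The interval closest to excluding 0 was that of Nars2, which charges the asparagine tRNA (chromosome 7, 96951505 to 97064758, mm10). Nars2 measured 15.0 and 11.3 CPM in the mutants, against 20.5 and 21.9 CPM in the wild types (log2 fold change -0.68, SE 0.32, 95% interval -1.37 to 0.01, edgeR adjusted p = 0.50). Both mutants were below both wild types, and the value stayed between -0.90 and -0.45 in all 16 alternative settings. Wars2, the tryptophan synthetase, measured 16.9 and 12.4 CPM in the mutants and 17.8 and 26.4 CPM in the wild types (log2 fold change -0.59, edgeR adjusted p = 0.599). The groups did not overlap, but wild type 1 was close to mutant 1.

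Other synthetases pointed the other way. Cars2, the cysteine synthetase, measured 24.7 and 29.0 CPM in the mutants and 22.3 and 15.5 CPM in the wild types (log2 fold change 0.51, edgeR adjusted p = 0.638). Both mutants were above both wild types. Tars2, the threonine synthetase, measured 13.05 and 21.6 CPM in the mutants and 13.4 and 9.30 CPM in the wild types (log2 fold change 0.60, edgeR adjusted p = 0.617), with mutant 1 between the wild types. The estimates of Sars2, the serine synthetase, and Yars2, the tyrosine synthetase, were 0.66 and 0.57. Fars2, the phenylalanine synthetase, was nearly level, at 90.3 and 84.4 CPM in the mutants and 95.6 and 98.3 CPM in the wild types (log2 fold change -0.15, edgeR adjusted p = 0.884). Of the synthetases given above, Nars2, Wars2, Cars2 and Fars2 overlap genes on the opposite strand (C230038L03Rik for Nars2, 2 genes for Wars2, Naxd for Cars2, 8 genes for Fars2). Wars2 and Fars2 also overlap 2 and 3 genes on their own strand. Whether the counting used strand was not given in the sources used here.

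The initiation factors did not share a direction in the proximal tubule. Mtif2, which places the initiator tRNA on the small subunit, measured 35.9 and 30.3 CPM in the mutants and 32.7 and 48.1 CPM in the wild types (log2 fold change -0.29, edgeR adjusted p = 0.752). Mtif3, which keeps the subunits apart before initiation, measured 28.6 and 28.5 CPM in the mutants and 34.3 and 22.0 CPM in the wild types (0.03, edgeR adjusted p = 0.979). The groups overlapped for both genes. Mtfmt, which formylates the initiator methionine, had a log2 fold change of 0.37.

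All 3 elongation factors were higher in mutant proximal tubule by estimate, with a median log2 fold change of 0.52. Tufm, the factor that brings each charged tRNA to the ribosome (chromosome 7, 126487361 to 126490731, mm10), measured 83.2 and 94.99 CPM in the mutants and 91.9 and 32.7 CPM in the wild types (log2 fold change 0.52, SE 0.46, edgeR adjusted p = 0.693). Its partner Tsfm, which recycles Tufm by nucleotide exchange, measured 102 and 90.6 CPM in the mutants and 86.0 and 44.1 CPM in the wild types (log2 fold change 0.57, edgeR adjusted p = 0.654). Wild type 2 was the low library for both genes, and wild type 1 lay within the mutants for Tufm and just below them for Tsfm. Gfm1, the translocase that moves the ribosome by a codon, had a log2 fold change of 0.25. Without wild type 2 the median of the 3 was -0.02, with 1 of 3 higher.

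Among the termination and recycling factors, 3 of 4 were higher by estimate (median 0.07). Mrrf, the ribosome recycling factor, measured 37.6 and 34.7 CPM in the mutants and 31.8 and 20.6 CPM in the wild types (log2 fold change 0.47, edgeR adjusted p = 0.659). Gfm2, the GTPase that works with Mrrf to part the subunits, measured 24.5 and 20.3 CPM in the mutants and 26.4 and 35.3 CPM in the wild types (-0.46, edgeR adjusted p = 0.656). The 2 partners thus stood on opposite sides, each without overlap between the genotypes. The release factor genes Mtrf1l and Mtrf1 were near level (0.03 and 0.10).

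The tRNA end-processing enzymes were led by Hsd17b10, a dehydrogenase of isoleucine breakdown that is also a subunit of mitochondrial RNase P (chromosome X, 152001845 to 152004442, mm10). Hsd17b10 measured 214 and 231 CPM in the mutants, against 209 and 94.5 CPM in the wild types (log2 fold change 0.56, SE 0.48, edgeR adjusted p = 0.688). As with Tufm, wild type 2 was the low library, and wild type 1 was close to the mutants. Trmt10c, the methyltransferase that is its partner in RNase P, measured 25.6 and 21.7 CPM in the mutants and 25.5 and 16.8 CPM in the wild types (0.17, edgeR adjusted p = 0.850), with overlap. Elac2, which cuts the 3′ ends, had a log2 fold change of 0.51, and Trnt1, which adds the terminal CCA, one of -0.02.

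Of the tRNA-modifying enzymes in the proximal tubule, 1 of 3 was higher. Trit1, which adds an isopentenyl group beside the anticodon, measured 10.1 and 11.9 CPM in the mutants and 15.7 and 15.4 CPM in the wild types (log2 fold change -0.51, edgeR adjusted p = 0.636), so both mutants were below both wild types. Pus1, a pseudouridine synthase, measured 31.99 and 35.3 CPM in the mutants and 35.7 and 20.6 CPM in the wild types (0.26, edgeR adjusted p = 0.774), with overlap. Trmt5, a guanosine methyltransferase, was level at -0.01.

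**Figure D2:**
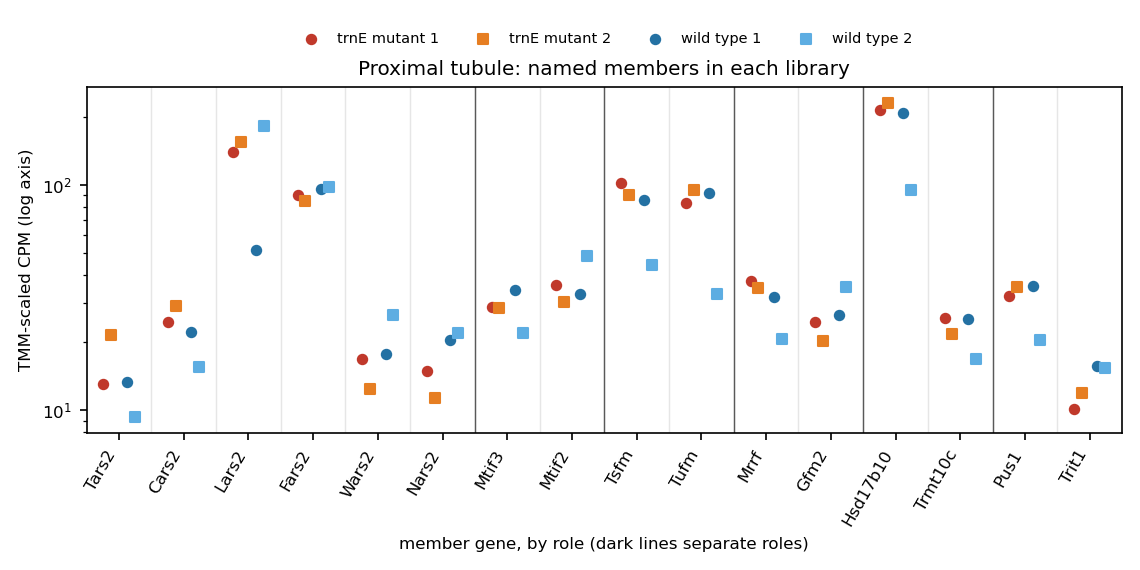
TMM-scaled CPM (log axis) of 16 members in the proximal tubule, 1 point per library, with mutants in red and orange to the left of wild types in blue. For Tufm, Tsfm and Hsd17b10 wild type 2 lies apart below the other 3 libraries, for Lars2 wild type 1 does, and for Nars2 and Trit1 both mutants lie below both wild types.

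The proximal tubule values turned on which wild-type library was compared. Without wild type 1, edgeR called 4 of 32 members, all higher in the mutants: Tufm (log2 fold change 1.48, adjusted p = 0.0270), Hsd17b10 (1.27, 0.0326), Yars2 (1.29, 0.0353) and Tsfm (1.16, 0.0408). In the same comparison 12.5% of the members were called, against 12.6% of all 14657 genes. Without wild type 2 the log2 fold changes were -0.06 for Tufm, 0.08 for Hsd17b10 and 0.16 for Tsfm, and 0 members were called (edgeR; 0 of all 13428 genes as well, with 750 at an unadjusted p under 0.05). The lone wild-type library is then assumed to vary as the mutants do. Proximal tubule clusters of more than 2 times the usual depth held 19.9% and 6.76% of mutant cells of this class, against 19.1% and 25.7% of wild-type cells, and without them the members' median was -0.04. Macrophage markers in these sums, 10 of 10 detected, were 386 to 572.5 CPM in the mutants and 42.1 to 86.1 CPM in the wild types, and their part in the members' values was not tested.

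Tufm was then followed through all 6 classes, a choice made after its values were seen. It was higher by estimate in each, under TMM and under library totals alike, with log2 fold changes of 0.52 in the proximal tubule, 0.57 in T cells, 0.76 in B cells, 0.30 in the distal convoluted and connecting tubule, 1.03 in the thick ascending limb and 0.36 in monocytes. The classes come from the same libraries and are not independent, and wild type 2 was the lowest library in each. Tufm spans 3.37 kb on the genome. Shorter genes tended to be higher in the mutants, as given below, and the part of span in the Tufm values was not tested. In the thick ascending limb, which takes salt back from the loop of Henle, Tufm measured 78.2 and 130.1 CPM in the mutants (61 and 109 UMIs), against 57.4 and 45.8 CPM in the wild types (35 and 43 UMIs). The log2 fold change was 1.03 (SE 0.30, 95% interval 0.36 to 1.70, edgeR adjusted p = 0.167), or 2.04-fold, and both mutants were above both wild types. This was the smallest adjusted p of any member. With no filter on low counts Tufm passed in this class (1.05, edgeR adjusted p = 0.0169, with 2.71% of 16849 genes called), and so it did without wild type 1 (1.25, 0.0228, with 5.95% of 9439 genes called). Over the other 11 settings its adjusted p was 0.167 to 0.780. B-cell markers in the thick ascending limb sums, 9 of 9 detected, were 80.4 to 89.5 CPM in the mutants and 112 and 3146 CPM in the wild types, the last in wild type 2. Distal convoluted and connecting tubule markers, 8 of 8 detected, were 4565 and 4612 CPM in the mutants, against 3085 and 1048 CPM in the wild types, without overlap, and the part of either cell type was not tested. In plain CPM Tufm averaged 28.1 in B cells and 69.7 in the distal convoluted and connecting tubule, against 74.1 in the thick ascending limb, and without wild type 2 the thick ascending limb value was 0.88.

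**Figure D3:**
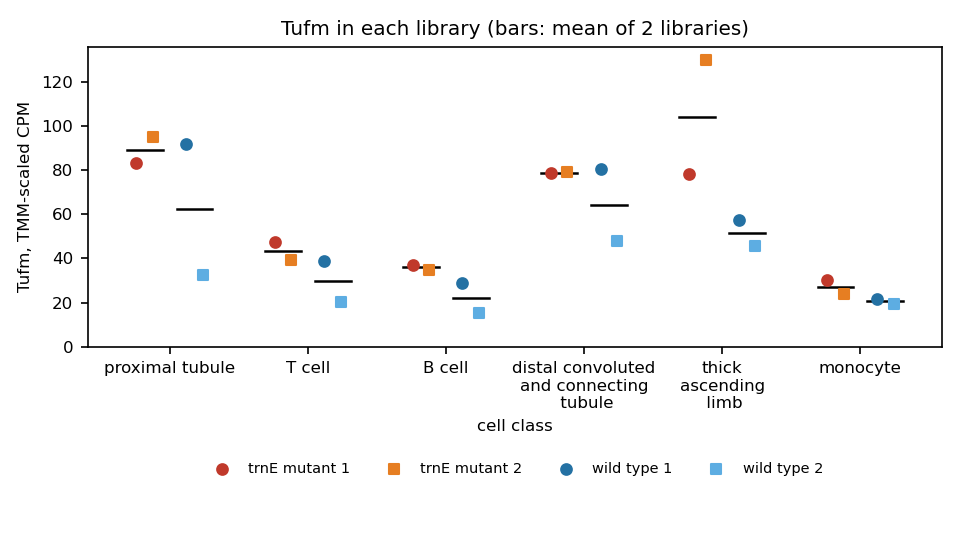
Tufm in TMM-scaled CPM in each library for the 6 classes tested, mutants to the left of wild types within each class, with bars for the mean of 2 libraries. Both mutants lie above both wild types in T cells, B cells, the thick ascending limb and monocytes, and wild type 2 is the lowest library in all 6 classes.

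Nars2 stood on the other side in the thick ascending limb. It measured 15.4 and 10.7 CPM in the mutants (12 and 9 UMIs), against 34.4 and 21.3 CPM in the wild types (21 and 20 UMIs). The log2 fold change was -1.05 (95% interval -2.04 to -0.06, edgeR adjusted p = 0.258), and both mutants were below both wild types. The same order, both mutants below, held for Nars2 in the proximal tubule, T cells, B cells and the distal convoluted and connecting tubule, while in monocytes the genotypes overlapped. These classes share the same libraries and are not independent. Nars2 spans 113 kb on the genome, and the part of span in its values was not tested. Fars2 was also lower by estimate in the thick ascending limb, at 82.1 and 81.1 CPM in the mutants and 112 and 104 CPM in the wild types (-0.40, edgeR adjusted p = 0.355).

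In the distal convoluted and connecting tubule, the segments after the loop, the member nearest the threshold was Tars2 (chromosome 3, 95739976 to 95760206, mm10). It measured 17.7 and 14.2 CPM in the mutants (24 and 23 UMIs), against 5.24 and 6.97 CPM in the wild types (6 and 8 UMIs). The log2 fold change was 1.36 (SE 0.45, 95% interval 0.35 to 2.38, edgeR adjusted p = 0.242), without overlap, and it stayed between 1.21 and 1.58 in all 13 alternative settings. Cars2 measured 42.7 and 40.8 CPM in the mutants and 26.2 and 28.7 CPM in the wild types (0.60, edgeR adjusted p = 0.338), again without overlap. Wars2 was lower by estimate, at 17.7 and 24.7 CPM in the mutants and 29.7 and 27.9 CPM in the wild types (-0.43, edgeR adjusted p = 0.531). Principal cell markers in these sums, 8 of 8 detected, were 4526 and 2268 CPM in the mutants, against 968 and 82.8 CPM in the wild types, and macrophage markers, 10 of 10 detected, 545 and 249 CPM in the mutants, against 166 and 16.4 CPM in the wild types, so that the genotypes did not overlap in either. Principal cells formed no class of their own. B-cell markers were 2922 CPM in mutant 1 and 69.9 CPM in mutant 2, against 17.1 and 502 CPM in the wild types. The part of these cells in the members' values was not tested. In plain CPM Tars2 measured 13.3 and 14.7 in mutant B cells (wild types 18.2 and 12.9), and 16.5 and 13.3 in this tubule class of the mutants (wild types 5.12 and 7.70).

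T cells, B cells and monocytes gave the members no call either. In T cells Hsd17b10 measured 107 and 77.5 CPM in the mutants and 62.8 and 48.0 CPM in the wild types (log2 fold change 0.74, SE 0.31, edgeR adjusted p = 0.776), with both mutants above both wild types. Trmt5 measured 5.44 and 7.07 CPM in the mutants and 4.41 and 2.55 CPM in the wild types (0.90, edgeR adjusted p = 0.776), and the isoleucine synthetase gene Iars2 20.8 and 23.9 CPM in the mutants and 27.8 and 35.1 CPM in the wild types (-0.49, edgeR adjusted p = 0.776). Neither overlapped. Macrophage markers in the T cell sums, 10 of 10 detected, were 453 and 141 CPM in the mutants, against 85.3 and 44.2 CPM in the wild types, in the same order of libraries as Hsd17b10, and T cell markers, 12 of 12 detected, were 9699.5 and 11545 CPM in the mutants, against 9621 and 6530.5 CPM in the wild types. In plain CPM Hsd17b10 averaged 45.3 ± 12.6 in macrophages and 72.0 ± 17.1 in T cells (SD, n = 4 libraries each). The part of macrophage RNA was not tested. In B cells Tufm measured 37.2 and 34.7 CPM in the mutants and 28.7 and 15.3 CPM in the wild types (0.76, edgeR adjusted p = 0.786). Yars2 measured 24.8 and 14.8 CPM in mutant B cells and 14.7 and 7.88 CPM in wild type (0.82, edgeR adjusted p = 0.786), with mutant 2 level with wild type 1. Hsd17b10 measured 63.6 and 60.4 CPM in mutant B cells and 56.7 and 36.7 CPM in wild type (0.43, edgeR adjusted p = 0.786). In each of these 3 genes wild type 2 was the lowest library. Monocyte markers in the B cell sums, 9 of 9 detected, were 543 and 478 CPM in the mutants, against 727 and 1437.5 CPM in the wild types, and their part was not tested.

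In monocytes Hsd17b10 measured 93.7 and 60.7 CPM in the mutants and 54.0 and 37.9 CPM in the wild types (0.69, edgeR adjusted p = 0.877). Mtrf1l measured 8.52 and 11.9 CPM in the mutants (9 and 54 UMIs) and 5.23 and 4.88 CPM in the wild types (15 and 4 UMIs; 1.05, edgeR adjusted p = 0.877). Tsfm measured 35.0 and 19.6 CPM in the mutants (37 and 89 UMIs) and 19.2 and 9.77 CPM in the wild types (55 and 8 UMIs, log2 fold change 0.74, edgeR adjusted p = 0.877). None of the 3 overlapped, but for Tsfm mutant 2 and wild type 1 were nearly equal. Macrophage markers in the monocyte sums, 10 of 10 detected, were 5080 and 2739 CPM in the mutants, against 3561 and 1328 CPM in the wild types, and their part was not tested.

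The difference between classes was tested as an interaction with library as a block. For the proximal tubule minus T cells 0 of 32 members were called by edgeR (0% of 14510 genes, with 750 genes at an unadjusted p under 0.05). For the proximal tubule minus the thick ascending limb 0 of 32 were called (0.472% of 12937 genes). Only 23 of these 32 had enough UMIs to be tested within the thick ascending limb alone. The others passed the filter on their proximal tubule counts, so for them the lack of a call says little. The members with the smallest p against T cells were Trmt5 (difference of log2 fold changes -0.93), Gfm1 (0.61) and Rars2 (-0.54). Against the thick ascending limb they were Yars2 (0.73), Tars2 (0.75) and Pars2 (1.61, SE 1.46), and all 6 had an edgeR adjusted p of 1. Pars2 was too low to be tested within the thick ascending limb, with 1 UMI in each mutant and 3 in each wild type.

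Genes of 3 related lists were compared in the same way, and 0 of them passed the threshold (edgeR and DESeq2 alike). Mitochondrial ribosomal protein genes were higher in mutants in 76 of 78 in the proximal tubule (median log2 fold change 0.51), 77 of 78 in T cells (0.53), 73 of 78 in B cells (0.43), 62 of 78 in the distal convoluted and connecting tubule (0.19), 70 of 78 in the thick ascending limb (0.45) and 74 of 78 in monocytes (0.50). Without wild type 2 their proximal tubule count was 59 of 78 and the median 0.11. Of all genes tested, 48.8% (B cells) to 51.2% (monocytes) were higher in the mutants. The classes share the same libraries, and the part of gene span, described below, in the values of this list was not tested. Cytosolic synthetases, which charge tRNAs outside mitochondria, were higher in 18 of 20 in the proximal tubule (0.31), 13 of 20 in T cells (0.05), 8 of 20 in B cells (-0.14), 16 of 19 in the distal convoluted and connecting tubule (0.14), 14 of 19 in the thick ascending limb (0.28) and 17 of 20 in monocytes (0.19), and under library totals the median turned negative in T cells (-0.14) and monocytes (-0.01). A further list of 27 genes of mitochondrial translation, Ears2, which charges the glutamate tRNA, among them, was higher in 20 of 27 in the proximal tubule (0.19), 20 of 27 in T cells (0.22), 16 of 27 in B cells (0.17), 14 of 26 in the distal convoluted and connecting tubule (0.02), 13 of 21 in the thick ascending limb (0.15) and 12 of 23 in monocytes (0.00). For these lists no test of the list as a whole was made.

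Short members tended to be higher in the mutants and long ones lower, a pattern seen in the data and described afterwards. The span of a member on the genome ran between 2.60 kb (Hsd17b10) and 609 kb (Fars2). The Spearman correlation between span and log2 fold change across members was -0.39 in the proximal tubule (32 members), -0.57 in T cells (32), -0.62 in B cells (30), -0.19 in the distal convoluted and connecting tubule (28), -0.41 in the thick ascending limb (23) and -0.44 in monocytes (24). Across all genes tested it was -0.44, -0.52, -0.53, -0.40, -0.54 and -0.50 in the same order. The sign was thus the same for members and all genes in each class, with the widest gap in the distal convoluted and connecting tubule. Genes of 1 library share its depth and RNA state and are not independent replicates. In T cells the 10 shortest members had a median of 0.49 and 8 of 10 were higher, against -0.20 and 2 of 10 for the 10 longest. In the proximal tubule the 2 medians were 0.25 and -0.26 (7 and 3 of 10 higher), and in B cells 0.35 and -0.19 (9 and 3 of 10). In monocytes they were 0.36 and -0.08 (7 and 3 of 8). The 2 ends were closer in the distal convoluted and connecting tubule, at 0.10 and -0.15 (5 and 4 of 9), and in the thick ascending limb, at 0.01 and -0.30 (4 and 3 of 7).

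The relation was weaker without wild type 2 in each class: -0.10 in the proximal tubule, -0.26 in T cells, -0.07 in B cells, -0.02 in the distal convoluted and connecting tubule, -0.37 in the thick ascending limb and -0.37 in monocytes. Other libraries moved it too: in the thick ascending limb it was -0.28 without wild type 1 and -0.28 without mutant 2, in monocytes -0.33 without mutant 2, and in the distal convoluted and connecting tubule 0.07 without mutant 2. Without the deep clusters it was -0.16 in the proximal tubule. Malat1, a nuclear RNA, was highest in wild type 2 as given above, and its part in the relation was not tested. The counts do not say whether intronic reads were included.

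**Figure D4:**
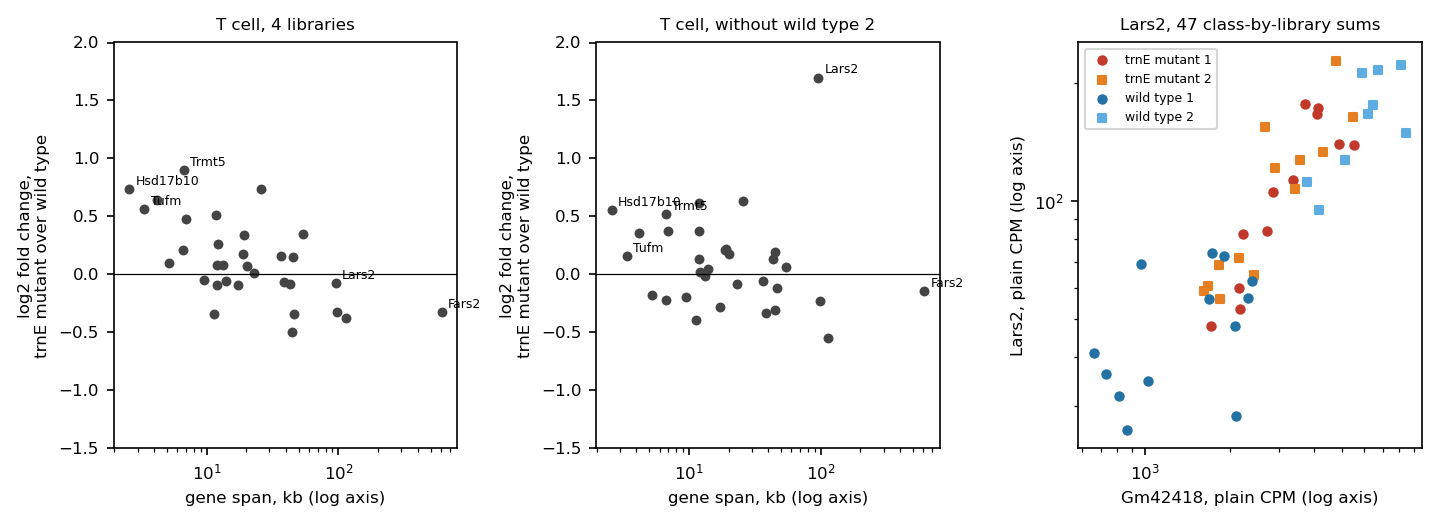
Left and middle: log2 fold change (trnE mutant over wild type, T cells) against gene span in kb (log axis), 1 point per member, with all 4 libraries and without wild type 2; the Spearman correlation is -0.57 and -0.26. Right: Lars2 against Gm42418, both in plain CPM on log axes, 1 point per class and library (47 sums); within each of the 6 classes tested wild type 1 is lowest in Lars2 and wild type 2 highest.

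Lars2, the leucine synthetase (chromosome 9, 123366927 to 123462666, mm10), showed a wide spread between the wild types. In the proximal tubule it measured 139 and 154 CPM in the mutants, against 51.1 and 182.9 CPM in the wild types (log2 fold change 0.32, SE 0.52, edgeR adjusted p = 0.812). Both mutants lay between the wild types, and this order held in all 6 classes. Without wild type 2 its log2 fold change was 1.51 in the proximal tubule, 1.70 in T cells (edgeR adjusted p = 0.857), 1.41 in the distal convoluted and connecting tubule (0.00125) and 1.48 in the thick ascending limb (0.0167), with 2.96% and 1.07% of all genes called in the last 2, and without wild type 1 it was -0.28 in the proximal tubule. Gm42418 and AY036118, annotated genes that overlap ribosomal RNA repeats, followed the same order of libraries: summed, they made 4960 and 4352 CPM in the proximal tubule of the mutants and 2118 and 8552 CPM in that of the wild types, in plain CPM. On that scale Lars2 measured 140 and 133 in mutant proximal tubule, against 48.0 and 222 in wild type. Across the 47 sums per class and library, the Spearman correlation between Lars2 and Gm42418 was 0.88, against -0.39 (Trit1) to 0.49 (Iars2) for the other 31 members. The 47 sums share 4 libraries, and what this likeness contributes to Lars2 was not tested.

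The members' summed level was higher in tubule cells than in immune cells. In plain CPM, before TMM scaling, it was highest in intercalated cells, cells of the collecting duct that secrete acid or bicarbonate, at 1219 ± 39.6 (SD, n = 3 libraries). Then came the proximal tubule at 1077 ± 67.9 (n = 4), the distal convoluted and connecting tubule at 1042 ± 94.4 (n = 4) and the thick ascending limb at 1027.5 ± 55.3 (n = 4), which did not differ beyond their spread. Fibroblast and mural cells had 892 ± 21.8 (n = 3), T cells 801 ± 81.8 (n = 4), endothelium 766 ± 53.7 (n = 3), B cells 721 ± 95.2 (n = 4) and NK cells 647 ± 2.1 (n = 2), with neighbours from T cells to B cells overlapping. Macrophages at 596 ± 125, dendritic cells at 591 ± 109 and monocytes at 571 ± 42.9 (n = 4 each) lay within one another's spread. Plasma cells (480, n = 1) and neutrophils (388 ± 99.2, n = 3) were lowest. Over nuclear genes alone the thick ascending limb came before the proximal tubule, at 1263 and 1231 CPM. Single members weighed heavily in the sum. In plain CPM Hsd17b10 alone averaged 310 in intercalated cells and 182 in the proximal tubule, against 72.0 in T cells. Lars2 averaged 58.5, 136 and 87.0 in these classes.

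**Figure D5:**
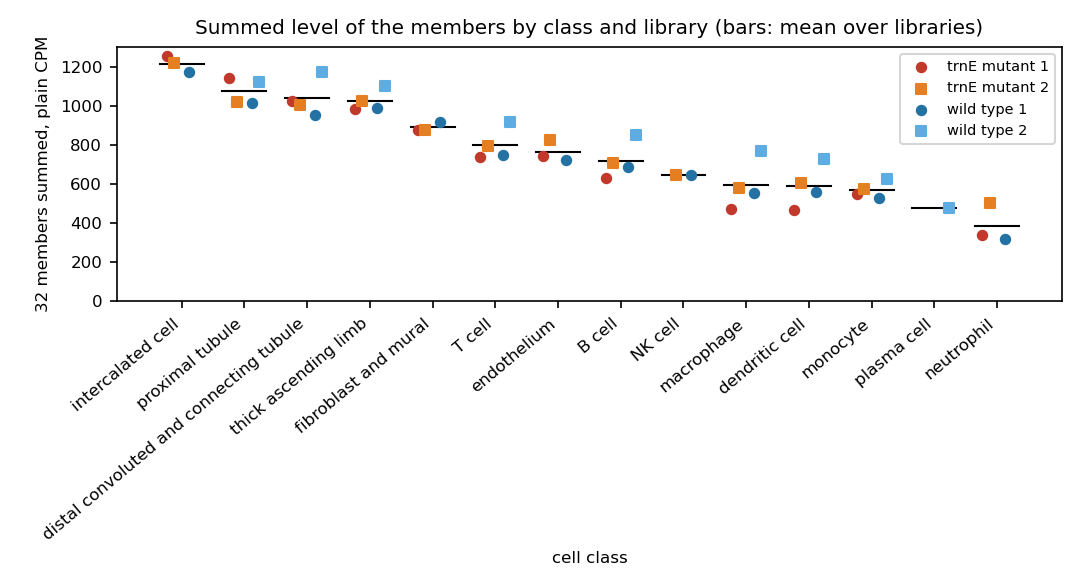
Summed level of the 32 members in plain CPM by class, 1 point per library with at least 50 cells of the class, mutants left of wild types and bars for the mean over libraries. The 4 classes of tubule and collecting duct cells lie on the left, with means of 1027.5 CPM or more, and neutrophils on the right at 388 CPM.

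Single members shared this order to different degrees. By mean plain CPM, 22 of the 32 members were highest in 1 of the 4 tubule and collecting duct classes, 10 of them in intercalated cells. The same count was not made over all genes, so whether it is particular to the members was not tested. Some placements rest on few UMIs. Aars2 came first in the thick ascending limb with 32 UMIs (9.76 ± 1.90 CPM), against 8.29 ± 2.82 CPM in the distal convoluted and connecting tubule (43 UMIs). Hsd17b10 averaged 309.9 ± 30.2 CPM in intercalated cells and 182 ± 45.3 CPM in the proximal tubule, and 28.6 CPM in plasma cells. Tufm averaged 98.2 ± 10.4 CPM in intercalated cells and 7.90 ± 4.16 CPM in neutrophils, and Gfm1 54.5 ± 4.67 CPM in intercalated cells and 8.99 CPM in plasma cells. The other 10 members had their highest mean elsewhere. Trit1 averaged 34.6 ± 7.31 CPM in dendritic cells and 23.3 ± 3.18 CPM in B cells, the next class. For others the first 2 classes did not differ beyond their spread: Mtif2 averaged 50.8 ± 21.2 CPM in macrophages and 48.8 ± 4.05 CPM in T cells, Trnt1 32.6 ± 2.96 CPM in T cells and 31.7 ± 5.38 CPM in B cells, Tars2 19.4 ± 2.74 CPM in T cells and 18.2 ± 7.0 CPM in fibroblast and mural cells, and Mrrf 38.2 ± 2.85 CPM in endothelium and 34.5 ± 11.7 CPM in intercalated cells. Over nuclear genes alone Mtif2 came first in the thick ascending limb (56.2 against 52.7 CPM in macrophages). Across the 47 sums and 7278 genes, those most like the members' summed level were Hspa9, the chaperone that pulls proteins into the matrix (Spearman correlation 0.94), Ndufaf4, an assembly factor of complex I (0.94), and Aifm1, an oxidoreductase of the intermembrane space (0.93). The sums share 4 libraries, so these values are descriptions.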

How the data were processed

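The deposited matrices are raw counts of UMIs, by gene and by cell barcode, which the authors made with Cell Ranger 7.0.0 (mutants) and 7.1.0 (wild types) per the file headers. The build, mm10, is per the submitters' processing notes; the annotation release, the use of intronic reads and of strand were not given in the sources used here. Cell Ranger output carried no normalization.

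A barcode was kept if it had 200 or more genes, 500 or more UMIs and a mitochondrial share no higher than 50%. Doublets were scored per library by the method of Scrublet, with 2 simulated doublets per barcode and an expected rate of 0.05, and 630 barcodes (1.71 to 2.30% per library) were removed. Counts were scaled and logged, and 2000 variable genes without the members, 30 principal components and a graph of 20 neighbours were clustered with the Leiden method of leidenalg 0.10.2 (resolution 1). Clusters were named by marker lists; 2 of 35 stayed unnamed. No correction for free RNA was applied.

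UMIs were summed per library and class. Of 8 classes with at least 50 cells in every library, the 6 whose smallest library held the most cells were tested, with filterByExpr, TMM and the quasi-likelihood test of edgeR 4.0.16 (R 4.3.3), threshold 0.05; DESeq2 1.42.0 was an alternative. The fit was tested on simulated data. Members named are those of smallest p (5 in the proximal tubule, 3 elsewhere) and the 2 highest of each role in the proximal tubule; others were chosen after their values were seen. Alternatives were RLE scaling or library totals, other filters on genes and cells, a replicate block, doublets kept, proximal tubule clusters left out and each library left out. Gene positions are from GENCODE M21. Members, lists and tests were chosen with earlier results of these data known. Intervals cover the spread between libraries.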

Additional observations from a re-analysis of the deposited data

How the results depend on the processing

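The number of members past the threshold stayed at 0 in 76 of 81 alternatives and moved in the others: leaving out 1 library at a time gave 0 to 4 in the proximal tubule, 0 to 1 in the distal convoluted and connecting tubule and 0 to 1 in the thick ascending limb, and no filter on low counts gave 1 in the thick ascending limb. Of the values of single named members, 431 kept their direction and side of the threshold, 5 passed it and 14 turned direction, all in the proximal tubule. Without the clusters of high depth the log2 fold changes turned to -0.20 for Lars2, 0.18 for Fars2, 0.035 for Mtif2, -0.032 for Mtif3, -0.087 for Trmt10c and -0.026 for Pus1. Leaving out 1 library at a time, they ranged between -0.28 (without wild type 1) and 1.51 for Lars2, -0.50 and 0.016 for Mtif2, -0.27 and 0.41 for Mtif3, -0.056 and 1.48 for Tufm, -0.11 and 0.53 for Trmt10c and -0.098 and 0.74 for Pus1, the lowest without wild type 2 for the last 4 and the highest without it for Lars2 and Mtif2. Mtif3 was also -0.14 with library totals and -0.011 with at most 25% mitochondrial UMIs. The cause was not tested. The number of all genes called ranged over the alternatives as follows: 0 to 1842 in the proximal tubule, 0 to 145 in T cells, 0 to 437 in B cells, 4 to 975 in the distal convoluted and connecting tubule, 3 to 562 in the thick ascending limb and 0 to 114 in monocytes. The replicate numbers name the libraries and pair nothing known; same-numbered libraries deviated together with correlations of -0.17 to 0.23. With the replicate block 0 members were called, and all-gene calls were 339 against 138 without it in the proximal tubule, 0 against 0 in T cells, 10 against 0 in B cells, 124 against 42 in the distal convoluted and connecting tubule, 54 against 12 in the thick ascending limb and 5 against 0 in monocytes. Crossing the numbers in the proximal tubule gave 352 calls. Depth limits the members most in the thick ascending limb and monocytes, where 9 and 8 of them had too few UMIs to be tested. The alternative without deep clusters, that without the shallow cluster and the crossed pairing were chosen after seeing the data.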
